A study of Mus musculus with 2 samples.

Results

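The genes of the mitochondrial tricarboxylic acid (TCA) cycle that lead from citrate to succinyl-CoA and out of it were read in differentiating mouse erythroid cells. The set held 9 genes, Cs, Idh3a, Ogdh, Dlst, Dld, Suclg1, Suclg2, Sucla2 and Fh1, of the 43346 genes in the deposited gene tables, and 29 of the 103639 transcripts in the deposited transcript tables. They were found by gene identifier, with the version removed, and all 9 were present in both libraries.

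G1E-ER4 is an immortalized mouse erythroid line in which Gata1 is restored as a fusion with an estrogen receptor domain, so that estradiol starts its differentiation. The labels record it as male and postnatal, with an age of 0 days. Both libraries were polyadenylated RNA of cells given 10 nM 17beta-estradiol for 24 h, and they form 1 group, biological replicates 1 and 2, with no untreated cells analysed here. Since 1 biosample record covers both, SDs measure only the spread between these 2 libraries, which may be technical. The line came from 1 donor record, and the libraries therefore describe these cultures and not erythroid cells of several mice.

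Citrate synthase joins acetyl-CoA to oxaloacetate, and NAD-dependent isocitrate dehydrogenase turns isocitrate into 2-oxoglutarate. The 2-oxoglutarate dehydrogenase complex, built from OGDH (E1), DLST (E2) and DLD (E3), then makes succinyl-CoA. Succinyl-CoA has another use in erythroid cells, since 5-aminolevulinate synthase joins it to glycine to open heme synthesis. Succinyl-CoA ligase converts succinyl-CoA to succinate and back. It pairs an alpha subunit (SUCLG1) with a beta subunit that sets the nucleotide formed, ATP with SUCLA2 and GTP with SUCLG2. Fumarate hydratase acts later in the cycle.

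Replicate 1 was sequenced 5.09-fold deeper, to 70451042 estimated counts against 13841487 for replicate 2. Of 10 erythroid marker genes, 9 were detected, meaning at least 1 TPM (transcripts-per-million) in both libraries. Epb42 (1.32 and 0.29 TPM) was the exception. The summed level of the 10 was 198294 TPM in replicate 1 and 86743 TPM in replicate 2. Most of it came from the globin genes Hba-a1 (70454 and 35419 TPM) and Hbb-bs (122878 and 45332 TPM). Every marker but Klf1 (664.76 and 2351.07 TPM) had the higher TPM in replicate 1, although Gata1 was nearly level (3037.95 and 2939.75 TPM). Of 5 megakaryocyte markers, 2 were detected (Itga2b and Gp9), with a summed level of 5.36 and 8.09 TPM. None of the markers of mast cells, monocytes and neutrophils, lymphoid cells or stroma and endothelium was detected in both libraries, and the summed level of each of these lists was at most 1.88 TPM. Pf4, Cpa3, Mcpt8, Fcer1a, Csf1r, Cd3e and Pecam1 had 0 counts in both libraries. TPM is a share of the library, so the summed erythroid markers enter every other gene's TPM, and their part in the differences between the libraries was not tested.

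Suclg1, the shared alpha subunit of the ligase, is the gene of the set whose reads were assigned mostly to transcripts that are not annotated as protein coding. The exon junctions that separate its coding transcript Suclg1-201 from the leading transcript Suclg1-204 are shown for that reason. Both share the exon at mm10 chr6:73256171-73256274 on the + strand, whose last 30 bases are in lower case, and the 60 bases in capitals open the next exon of each. In Suclg1-201 that is a coding exon of 117 bases at chr6:73260475-73260591, and in Suclg1-204 it is a last exon of 433 bases at chr6:73257148-73257580 with no coding annotation.
Suclg1-201: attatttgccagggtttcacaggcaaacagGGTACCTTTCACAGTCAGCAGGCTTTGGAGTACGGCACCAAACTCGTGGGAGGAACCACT
Suclg1-204: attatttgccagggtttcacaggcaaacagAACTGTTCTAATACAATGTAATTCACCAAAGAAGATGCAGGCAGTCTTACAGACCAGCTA

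The 2 beta subunits that pair with SUCLG1 come from separate genes. Their annotated coding sequences, 1389 bases in Sucla2 and 1152 in Suclg2, were 62.8% identical over 1133 aligned bases. The longest run they shared was 12 bases, ACAGATGATTGG, at coding position 399 of Sucla2 and 210 of Suclg2, counted from 1 at the first coding base.

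The 3 genes of the 2-oxoglutarate dehydrogenase complex were far apart in level, and the 250 bases before their RefSeq start sites are shown so that they can be compared. The windows are on GRCm38.p6, at chr11:6291409-6291658 on the + strand for Ogdh, chr12:85110583-85110832 on the + strand for Dlst and chr12:31351472-31351721 on the - strand for Dld. Capitals mark GATAA or its reverse complement TTATC, the short core motif bound by GATA factors.
Ogdh: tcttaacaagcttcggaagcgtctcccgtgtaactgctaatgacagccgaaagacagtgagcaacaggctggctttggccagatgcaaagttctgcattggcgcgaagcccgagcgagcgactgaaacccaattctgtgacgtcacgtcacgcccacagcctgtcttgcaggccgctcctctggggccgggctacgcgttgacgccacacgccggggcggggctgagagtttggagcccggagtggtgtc
Dlst: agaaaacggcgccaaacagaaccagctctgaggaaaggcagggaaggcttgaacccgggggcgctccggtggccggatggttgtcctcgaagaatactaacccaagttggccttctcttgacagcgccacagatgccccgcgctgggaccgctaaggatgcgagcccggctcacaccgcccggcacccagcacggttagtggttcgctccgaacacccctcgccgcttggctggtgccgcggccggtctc
Dld: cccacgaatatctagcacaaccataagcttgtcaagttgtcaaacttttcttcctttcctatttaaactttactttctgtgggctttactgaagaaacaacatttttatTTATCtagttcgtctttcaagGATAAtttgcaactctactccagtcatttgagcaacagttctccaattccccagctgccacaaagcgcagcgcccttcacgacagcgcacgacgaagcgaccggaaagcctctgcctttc
The Dld window held 2 matches, and the Ogdh and Dlst windows shown held none, although 2 of the 6 start-site windows of Ogdh held a match. Of the 8 genes of the set in the RefSeq table, 2 (Cs and Dld) had a match in the window used, and 22.6% of all 32851 windows of that length held one. GC content was 60.8% in the Ogdh window, 64.8% in the Dlst window and 43.6% in the Dld window, against a median of 52.4% over all windows. A match is a string of letters and not a measured binding site.

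Transcripts of 8 of the 9 genes were detected, where 17.2% of all genes and 33.1% of protein-coding genes were. The median of the 9 mean levels, with the undetected Dld included, was 11.4 TPM. Over all 7444 detected genes the median was 18.6 TPM, but that set holds detected genes only, so the 2 medians are not of like sets. Dlst stood at the top in both libraries, above 94.6% of detected protein-coding genes by mean TPM. Ogdh, Fh1, Suclg1, Sucla2 and Cs followed, and the ranges of neighbours in that order overlapped between libraries. Suclg2, Dld and Idh3a were lowest, and their ranges overlapped too. The ranges of Dlst and Ogdh were apart, as were those of Cs and Suclg2. Levels below are mean TPM ± SD (n = 2), and TPM corrects for transcript length, so genes can be set side by side. In bulk RNA, fewer cells with a transcript and less of it per cell cannot be told apart.

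**Figure D1:**
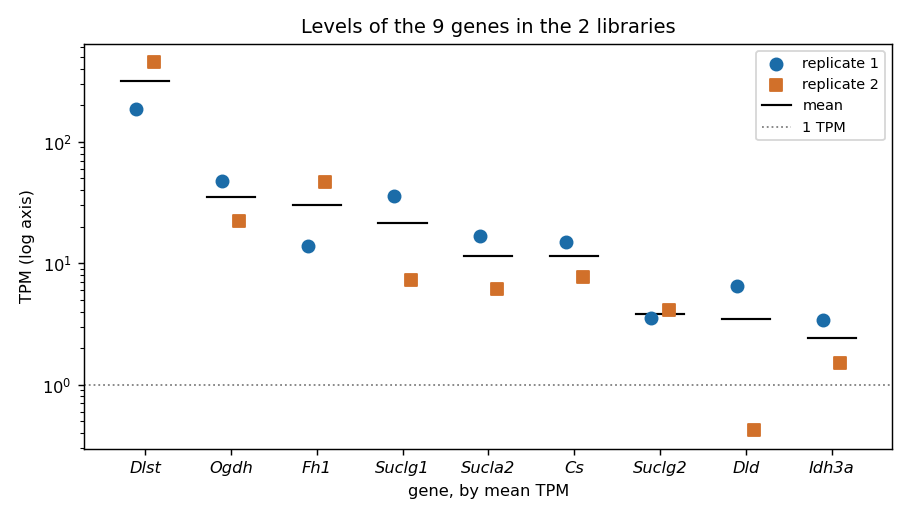
Levels of the 9 genes in TPM on a log axis, with replicate 1 as circles, replicate 2 as squares and the mean as a bar; the dotted line is 1 TPM. Dlst lies at 185.82 and 451.89 TPM, and Dld in replicate 2 (0.42 TPM) is the point below the line.

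Cs (ENSMUSG00000005683.7, mm10 chr10:128337734-128362479, + strand) encodes citrate synthase. It had 2771 and 234 counts and 15.02 and 7.76 TPM in replicates 1 and 2 (11.4 ± 5.13 TPM). Its level was above 37.1% of detected protein-coding genes. The mouse paralogue Csl, a citrate synthase-like gene, had 0 counts in both libraries, and a count of 0 allows up to 0.0426 CPM (counts-per-million) in the deeper library and 0.217 CPM in the other.

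Idh3a (ENSMUSG00000032279.10, mm10 chr9:54586334-54604661, + strand) encodes the catalytic alpha subunit of NAD-dependent isocitrate dehydrogenase and had the lowest mean of the 9 genes. It had 524 and 38 counts and 3.38 and 1.5 TPM (2.44 ± 1.33 TPM), above 6.53% of detected protein-coding genes. Its partner subunits were higher. Idh3b, the beta subunit, had 82.44 and 38.04 TPM, and Idh3g, the gamma subunit, had 18.26 and 7.02 TPM.

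Ratios between genes add a pseudocount of 0.1 TPM to each side, except where a counting interval is given. Idh3a was 23.7-fold below Idh3b in replicate 1 and 23.8-fold below in replicate 2, a mean log2 ratio of -4.57 ± 0.01 (SD, n = 2). Without the pseudocount the log2 ratio was -4.64 ± 0.04. On TMM-scaled CPM, which is not corrected for length, it was -3.78 ± 0.18. Against Idh3g, Idh3a was 5.28-fold and 4.45-fold lower (log2 -2.28 ± 0.17). As a yardstick for such ratios, absolute log2 differences between replicates 1 and 2 were taken for the 500 detected genes nearest in mean TPM to the lower gene, and their 95th percentile was used. It describes the spread of single genes between the libraries. Detected genes hold at least 1 TPM in both libraries, which caps the difference that a gene of low mean can show. For Idh3a the yardstick was 1.66, and both ratios lay beyond it in the same direction in both libraries. Since the cap holds this yardstick down, passing it does not place the ratios outside the spread of genes as low as Idh3a. With protein-coding transcripts alone, Idh3a was 21.4-fold and 13.8-fold below Idh3b, and 2.79-fold and 3.8-fold below Idh3g. The spread among genes counted that way was 4.39, and the mean of neither ratio passed it.

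Idh2, the mitochondrial NADP-dependent isocitrate dehydrogenase, was lower still, at 0.44 and 0.11 TPM from 45 and 2 counts. The TPM ratio of Idh3a to Idh2 was 7.68 in replicate 1 (95% counting interval 5.66 to 10.7) and 13.6 in replicate 2 (3.52 to 117). The wide interval of replicate 2 comes with the 2 counts behind it. With the pseudocount of 0.1 TPM, which these 2 values leave out, the mean log2 ratio was 2.81 ± 0.17. Its size depended on the setting, with 1.55 ± 1.04 from posterior mean TPM and 1.39 ± 0.31 with a pseudocount of 1 TPM, the same direction each time. The spread found by the same rule was 1.32, but it came from genes with at least 1 TPM in both libraries. Idh2 lay under that level, so this spread does not describe genes like it.

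Ogdh (ENSMUSG00000020456.13, mm10 chr11:6291633-6356642, + strand) encodes the E1 decarboxylase of the 2-oxoglutarate dehydrogenase complex. It had 12106 and 796 counts and 47.60 and 22.12 TPM (34.9 ± 18.0 TPM), above 64.4% of detected protein-coding genes. Its paralogue Ogdhl had 11 and 4 counts (0.05 and 0.11 TPM). The TPM ratio of Ogdh to Ogdhl was 952 (532 to 1908) in replicate 1 and 201 (78.2 to 740) in replicate 2. Dhtkd1, an E1 of the related 2-oxoadipate complex, had 1 count in replicate 1 and 0 in replicate 2.

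Dlst (ENSMUSG00000004789.9, mm10 chr12:85110833-85134845, + strand) encodes the E2 succinyltransferase that hands the succinyl group to CoA. It had 33503 and 13322 counts and 185.82 and 451.89 TPM (319 ± 188 TPM). Dlst alone made up 56.6% of the summed TPM of the 9 genes in replicate 1 and 82.5% in replicate 2. It was the highest of the 9 in each library, and higher in replicate 2.

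Dld (ENSMUSG00000020664.9, mm10 chr12:31331277-31351453, - strand) encodes the E3 dihydrolipoyl dehydrogenase, which the pyruvate and branched-chain dehydrogenases and the glycine cleavage system also use. It had 944 and 10 counts and 6.55 and 0.42 TPM (3.49 ± 4.33 TPM). Replicate 1 placed it above Suclg2 and Idh3a, while replicate 2 placed it last. It was the 1 gene of the set under 1 TPM in a library.

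The 3 components of the complex were thus far from equal in transcript level. The TPM ratio of Dlst to Dld was 28.4 (95% counting interval 26.6 to 30.3) in replicate 1 and 1076 (585 to 2244) in replicate 2. Ogdh to Dld was 7.27 (6.80 to 7.77) and 52.7 (28.5 to 110). Dlst and Ogdh both exceeded Dld in each library, with mean log2 ratios of 7.28 ± 3.51 and 4.13 ± 1.82 beside a spread of 2.14. That spread came from genes with at least 1 TPM in both libraries, which Dld did not have, so passing it decides nothing here. The size of each ratio differed several-fold between the libraries, and the replicate 2 values rest on 10 counts of Dld. Ogdh was 3.90-fold below Dlst in replicate 1 and 20.3-fold below in replicate 2, a mean log2 ratio of -3.15 ± 1.69 that did not pass the spread of 3.19. Mrps36, whose product is the adaptor known as the fourth component of the complex, had 125.67 and 17.05 TPM (71.4 ± 76.8 TPM).

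Suclg1 (ENSMUSG00000052738.10, mm10 chr6:73248382-73276911, + strand), the alpha subunit, had 1678 and 53 counts and 35.79 and 7.33 TPM (21.6 ± 20.1 TPM). Sucla2 (ENSMUSG00000022110.9, mm10 chr14:73525319-73596142, + strand), the ATP-forming beta subunit, had 1570 and 93 counts and 16.69 and 6.16 TPM (11.4 ± 7.45 TPM). Suclg2 (ENSMUSG00000061838.5, mm10 chr6:95473009-95718800, - strand), the GTP-forming beta subunit, had 516 and 99 counts and 3.52 and 4.12 TPM (3.82 ± 0.42 TPM). Suclg2 was the member whose level differed least between the libraries, and Sucla2 was above it in both.

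Sucla2 supplied 82.6% of the beta subunit TPM in replicate 1 and 59.9% in replicate 2 (71.3% ± 16.0, SD, n = 2). In counts, which are not corrected for length, its share was 75.3% (Wilson 95% interval 73.4 to 77.1) in replicate 1 and 48.4% (41.5 to 55.5) in replicate 2. The ATP-forming subunit was thus the larger part by TPM in both libraries, while its share of counts in replicate 2 had an interval that includes equal parts. Sucla2 exceeded Suclg2 4.64-fold and 1.48-fold (log2 1.39 ± 1.16), which did not pass the spread of 2.27. No molecular identifiers are named in the labels, so intervals on counts cover counting error and nothing else.

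With every transcript counted, Suclg1 was 1.77 times the sum of both beta subunits in replicate 1 and 1.40-fold below it in replicate 2 (log2 0.17 ± 0.92, spread 3.31). The direction differed between the libraries. Counting only transcripts annotated as protein coding, Suclg1 had 7.77 and 1.17 TPM. It was then 2.45-fold and 7.88-fold below the coding sum of the beta subunits (log2 -2.14 ± 1.19), the same direction in both libraries but not past the spread of 3.03. Coding Suclg1 was also 2.00-fold and 4.64-fold below coding Sucla2 (log2 -1.61 ± 0.86, spread 3.03). Against Suclg2 alone it was above in replicate 1 and below in replicate 2, with coding log2 ratios of 1.12 and -1.73.

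**Figure D2:**
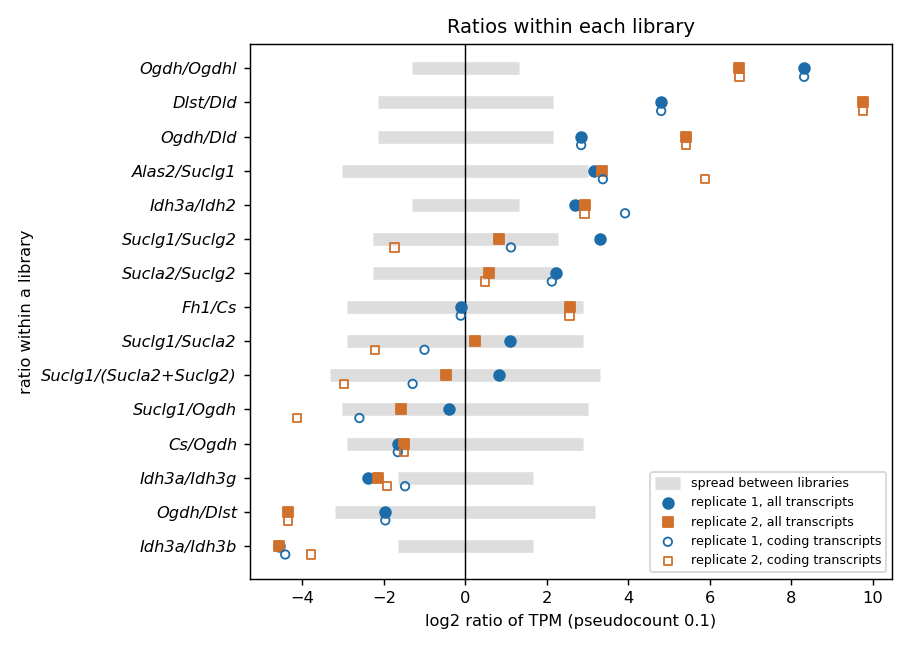
Log2 ratios of TPM within each library (pseudocount 0.1 TPM), with filled circles for replicate 1, filled squares for replicate 2 and open symbols for protein-coding transcripts alone. The grey bar is the spread between the libraries of the detected genes nearest in mean TPM to the lower gene, with all transcripts counted. Where the lower gene is Idh3a, Dld, Idh2 or Ogdhl, the minimum of 1 TPM in both libraries holds the bar down. Dlst/Dld and Ogdh/Dld lie to the right of their bars in both libraries, and the open symbols of Suclg1 over the summed beta subunits, at -1.29 and -2.98, lie left of 0.

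Alas2, the erythroid 5-aminolevulinate synthase that uses succinyl-CoA for heme, had 320.57 and 75.97 TPM (198 ± 173 TPM). It was 8.93-fold and 10.2-fold above Suclg1, a log2 ratio of 3.26 ± 0.14 beside a spread of 3.02. Both genes had lower TPM in replicate 2. The closeness of the 2 values held for TPM over all transcripts and not on every scale, since the log2 ratio was 4.09 ± 1.05 on TMM-scaled CPM, which is not corrected for length, and 4.62 ± 1.77 with coding transcripts alone. Coding transcripts made up 25.4% of Alas2 TPM in replicate 1 (81.52 TPM) and 98.0% in replicate 2 (74.42 TPM). Over coding Suclg1 this gave ratios of 10.4 and 58.7.

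Fh1 (ENSMUSG00000026526.10, mm10 chr1:175600374-175625635, - strand) encodes fumarate hydratase. It had 2382 and 1292 counts and 13.98 and 46.76 TPM (30.4 ± 23.2 TPM). Fh1 ranked 6 of 9 in replicate 1 and 2 of 9 in replicate 2. It was close to Cs in replicate 1 and 5.96-fold above it in replicate 2 (log2 1.24 ± 1.89, spread 2.90). Cs against Ogdh was steadier, 3.15-fold and 2.83-fold lower (log2 -1.58 ± 0.11), although not past the same spread. Of the 16 ratios computed, 14 pointed the same way in each library, and 8 lay beyond their spread (7 to 10 over the alternatives tried). All of these 8 but Alas2 over Suclg1 had Idh3a, Dld or a gene with a mean under 1 TPM as the lower gene. For such genes the minimum of 1 TPM in both libraries holds the spread down, so passing it decides little.

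The transcript tables show which forms carried these levels. Cs, Idh3a, Dlst, Dld and Suclg2 have 1 transcript each in the files, so nothing can be said of their isoforms. Suclg1 has 5. Its coding transcript Suclg1-201 took 21.7% of the gene's TPM in replicate 1 and 16.0% in replicate 2. Suclg1-204, the processed transcript whose junction is printed above, took 38.2% and 71.4%, and Suclg1-202, annotated for nonsense-mediated decay, took 33.0% and 12.6%. Suclg1-204 and Suclg1-202 are short, at 630 and 670 bases against 1519 for Suclg1-201. By estimated counts Suclg1-201 was the largest in replicate 1, with 732.51 counts against 450.77 for Suclg1-204, and the smaller in replicate 2, with 18.15 against 29.27. The replicate 2 shares therefore rest on few counts, and the shares of transcripts are model estimates from short reads.

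Ogdh has 7 transcripts, all of its signal but a trace in coding forms. Ogdh-201 led in replicate 1 with 41.5% of the TPM, and Ogdh-202 led in replicate 2 with 61.0%. Ogdh-204 had 21.6% of the TPM in replicate 1 and 0% in replicate 2, and the whole gene had 796 counts in the latter. Posterior mean values gave it 21.2% and 8.67%. These transcripts are nearly equal in length (4127, 4114 and 4106 bases), so their shares of counts and TPM are alike. Ogdh-207, a fragment of 702 bases annotated as coding, took 8.05% and 22.5%.

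Sucla2-201 took 92.9% and 94.1% of Sucla2, and Fh1-201 took 99.4% and 98.3% of Fh1. Of the 4 genes with more than 1 transcript, Ogdh was thus the 1 whose leading transcript differed between the libraries. Among all genes with a mean of at least 10 TPM and more than 1 transcript, 33.5% had a leading transcript that differed.

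**Figure D3:**
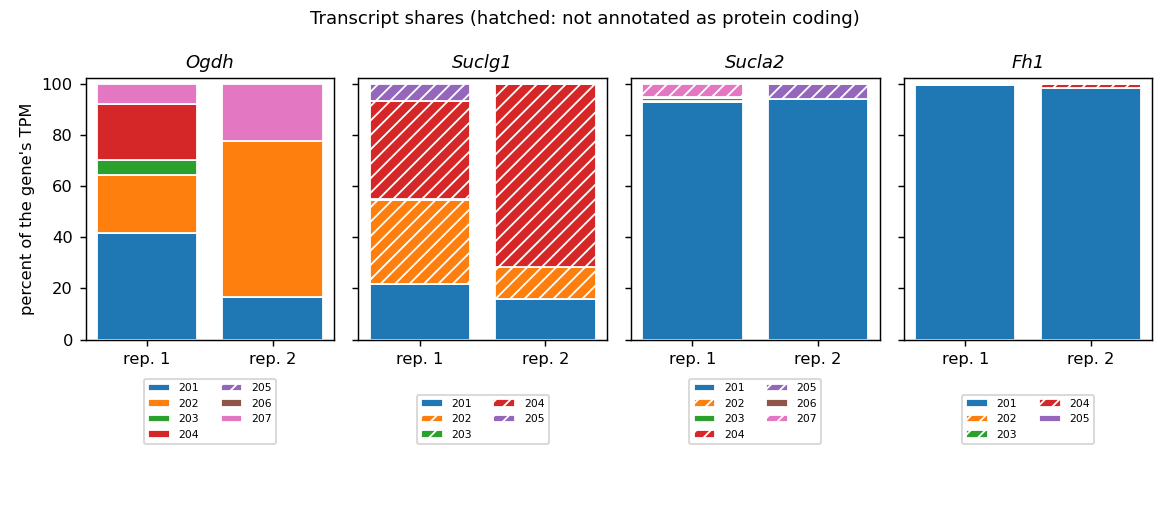
Percent of each gene's TPM by transcript in replicates 1 and 2 for Ogdh, Suclg1, Sucla2 and Fh1, with the colours keyed by transcript number and hatching for transcripts not annotated as protein coding. Most of each Suclg1 bar is hatched, and the leading colour of Ogdh differs between its bars.

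The libraries were set side by side gene by gene with a two-sided exact binomial test on counts scaled by TMM, with Benjamini-Hochberg adjustment over all 8884 genes tested. It compares these libraries with counting error only and says nothing of a condition. Across all genes 47.8% were called, which needed at least a 2-fold difference and an adjusted p under 0.05, with 29.8% higher in replicate 1 and 18.0% higher in replicate 2. Of the 9 genes of the set, 7 were called, 5 higher in replicate 1 and 2 higher in replicate 2. With so large a share of all genes called, this count describes the 9 genes and sets nothing apart. The median size of the log2 difference was 1.32 over the 9 genes and 0.95 over all genes tested. With 2 libraries a two-sided exact sign-flip test of replicate consistency could not go below p = 0.5.

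Idh3a, Ogdh, Sucla2, Suclg1 and Dld were higher in replicate 1. Dld differed the most, 13.4-fold (95% counting interval 7.62 to 29.4; exact binomial test, adjusted p = 1.34e-42). Suclg1 was 4.68-fold higher (3.59 to 6.33, adjusted p = 1.67e-46 by the same exact test) and Sucla2 2.50-fold (2.04 to 3.14). Ogdh was 2.27-fold higher (2.11 to 2.44). Idh3a stood just past the threshold at 2.03-fold (1.48 to 2.94), and its interval includes folds under 2.

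Dlst and Fh1 went the other way. Dlst was 2.67-fold higher in replicate 2 (2.61 to 2.72) and Fh1 3.64-fold (3.40 to 3.89; exact binomial test, adjusted p = 2.22e-256). Cs was 1.76-fold higher in replicate 1 (1.54 to 2.03) and was not called. Suclg2 was 1.29-fold higher in replicate 2 (1.03 to 1.60; exact binomial test, adjusted p = 0.0310) and was not called either. The log2 difference of Suclg2 turned from -0.37 to 0.03 when total counts replaced TMM. With total counts 78.9% of all calls were higher in replicate 1, against 62.3% under TMM and 53.9% with a mean CPM of at least 10, and the median of all genes moved from 0.19 to 0.61 on the log2 scale. No other gene of the set changed direction under the scalings tried.

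**Figure D4:**
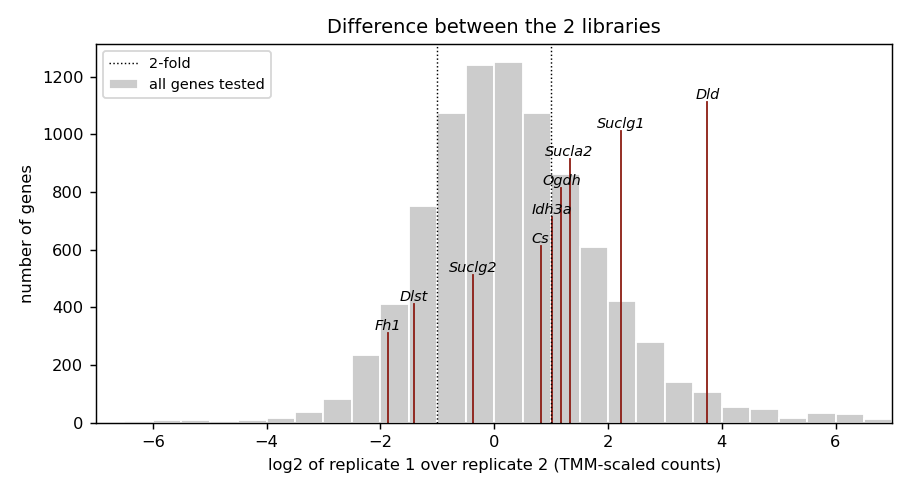
Histogram of the log2 difference between replicate 1 and replicate 2 in TMM-scaled counts over the genes tested, drawn from -7 to 7, with a line for each of the 9 genes (line height only separates the names) and dotted lines at 2-fold. Fh1 (-1.86) and Dlst (-1.42) lie left of the lower dotted line, and Dld (3.75) is the farthest to the right.

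Around the 9 genes, 68 further genes in 7 lists and Mrps36 were read in the same way. Of the 68, 48 were detected, with a median of 10.9 TPM over all 68. Of 52 tested, 16 were higher in replicate 1 and 4 higher in replicate 2, against 29.8% and 18.0% of all genes. Mrps36 was higher in replicate 1 as well, by 2.79 on the log2 scale.

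Of the 9 other mitochondrial cycle enzymes, 8 were detected, with a median of 48.2 TPM, above the 11.4 TPM of the set. Malate dehydrogenase Mdh2 had 363.59 and 241.29 TPM, and Dlst and Mdh2 had the highest means of the cycle enzymes read here. Of the 8 tested, 4 were called higher in replicate 1, Idh3b, Sdha and Sdhc among them, and none was called higher in replicate 2. The shares over all genes tested were 29.8% and 18.0%. Sdhc, a membrane anchor of succinate dehydrogenase, had 93.19 and 3.14 TPM, a log2 difference of 4.60 in scaled counts that exceeded that of Dld. Dlst and Fh1 were thus the 2 called cycle genes higher in replicate 2.

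**Figure D5:**
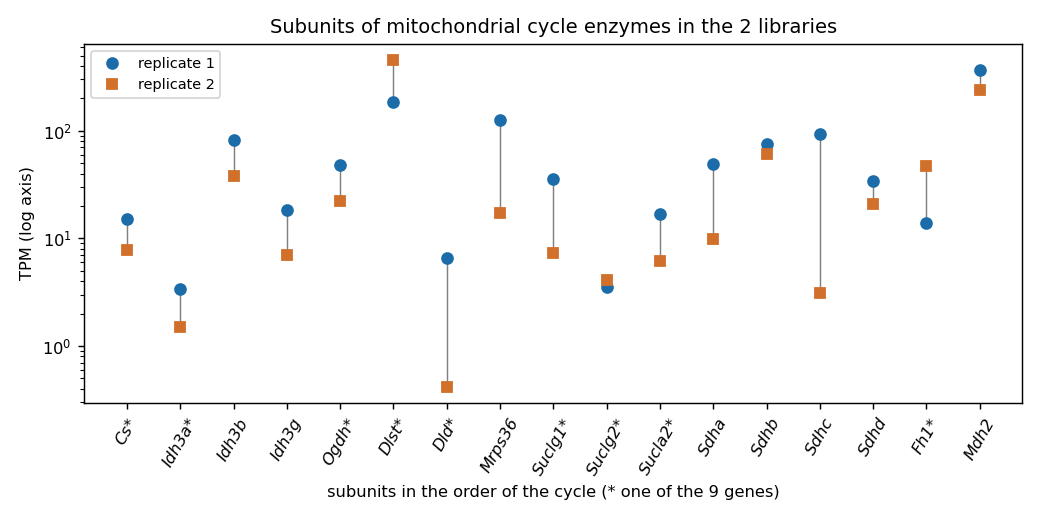
TPM on a log axis of subunits of the mitochondrial cycle enzymes in the order of the cycle, with replicate 1 as circles, replicate 2 as squares, a line joining each pair and asterisks on the 9 genes of the set. Replicate 2 lies above replicate 1 for Dlst, Suclg2 and Fh1, and the longest lines are those of Dld and Sdhc.

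Of the 8 cytosolic and paralogous forms measured, 4 were detected and the median was 0.76 TPM. Acly, which cleaves exported citrate, led with 30.59 and 8.20 TPM and was higher in replicate 1 (log2 1.87), and the cytosolic aconitase Aco1 had 11.16 and 7.68 TPM. Mdh1b, like Csl, had 0 counts.

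Carbon enters the cycle ahead of Cs through pyruvate and glutamine. Of 20 genes, 17 were detected, with a median of 24.9 TPM. With all transcripts counted, the pyruvate dehydrogenase kinase Pdk1 (94.9 ± 44.3 TPM) and the pyruvate carrier subunit Mpc2 (81.7 ± 13.3 TPM) were the highest. Pdk4 had 0 counts in both libraries. Coding transcripts held only 6.07 and 1.0 TPM of Pdk1 in replicates 1 and 2. For Mpc2 they held 86.93 and 5.37 TPM, so the order by coding TPM was another. The pyruvate dehydrogenase complex shares Dld, and its E1 beta subunit Pdhb was likewise higher in replicate 1, with 23.37 and 3.04 TPM. Its E2, Dlat, was higher in replicate 2 like Dlst, with 23.42 and 71.58 TPM. Mpc1, Pdp1 and Pdp2 were also higher in replicate 1, and Glud1, which makes 2-oxoglutarate from glutamate, was higher in replicate 2 (16.49 and 37.53 TPM).

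Other sources and users of succinyl-CoA gave 6 detected genes of 11, with a median of 2.60 TPM. With all transcripts counted, Alas2 and Slc25a38 (153 ± 4.40 TPM), the mitochondrial glycine carrier of heme synthesis, were far above the rest, and neither was called. Coding transcripts of Slc25a38 were less steady, at 117.87 TPM in replicate 1 and 21.05 TPM in replicate 2. Aldh5a1 had 0 counts. Pccb (38.78 and 6.43 TPM) and Mut (1.37 and 0.43 TPM), of the route from propionyl-CoA, and Oxct1 (8.30 and 2.68 TPM), which spends succinyl-CoA on ketone bodies, were higher in replicate 1. These were 3 of the 7 genes tested, and none of the 7 was called higher in replicate 2, against 29.8% and 18.0% of all genes tested.

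DLST carries lipoic acid, and 8 of 11 genes for its synthesis and for the iron-sulfur clusters it needs were detected, with a median of 29.3 TPM. With all transcripts counted, Glrx5 (1560 ± 253 TPM) and Ndufab1 (1072 ± 482 TPM) were the only genes of these lists with a mean above that of Dlst. Coding transcripts made up 7.11% of Ndufab1 TPM in replicate 1 (51.99 TPM) and 13.6% in replicate 2 (192.47 TPM). Coding Ndufab1 was thus below Dlst, whose TPM was all coding (185.82 and 451.89 TPM). Lias, the lipoyl synthase, had 6.77 and 0.42 TPM from 488 and 9 counts. With all transcripts counted this was close to the values of Dld, but coding transcripts of Lias held only 2.34 and 0.24 TPM. Lias was higher in replicate 1, as were Nfu1, Iscu and Fdx1l. Ndufab1 was higher in replicate 2 (log2 -1.39). Lipt1 was lowest, with 11 and 0 counts.

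The branched-chain dehydrogenase, a sister complex that also uses Dld, had 3 of 5 genes detected, with Ppm1k at 0 and 3 counts. With all transcripts counted, Bckdk (107.47 and 27.48 TPM) and Bckdha (61.59 and 27.98 TPM) had the highest means. Coding transcripts of Bckdk held 34.69 and 27.48 TPM, below Bckdha in both libraries, whose TPM was all coding. Of the 4 assembly factors of complex II, 2 were detected, Sdhaf1 (10.77 and 12.92 TPM) and Sdhaf2 (3.65 and 4.34 TPM), and Sdhaf3 was lowest at 0.11 and 0.17 TPM. Only 3 genes of the branched-chain list and 2 of the assembly factors were expressed enough to be tested. None of these was called between the libraries by the exact binomial test, against 47.8% of all genes tested. Bckdha lay just under the 2-fold minimum (log2 0.996).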

How the data were processed

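Per the labels, paired-end libraries of polyadenylated RNA were quantified on mm10. GENCODE M4 was the annotation according to a deposited text file. In the sources used here the aligner, quantification tool, filters and strand setting are not given. Tables deposited for each library hold estimated counts per gene and transcript, deposited TPM and FPKM values corrected for effective length, and the percent of a gene's TPM in each transcript as deposited. The deposited posterior SDs and interval bounds, handled as signal values, are not printed. The series title names a later series as its replacement, which was not used here.

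Symbols, positions and transcript types came from GENCODE M21 on the same assembly (42462 genes named), and promoter sequences from RefSeq on GRCm38.p6. Entries that are not genes held 3 and 0 counts and were left out of library sizes. Each level is given as a mean of 2 TPM values with its SD. Rounded estimated counts received TMM factors of 1.15 and 0.871 (edgeR 4.0.16). Genes averaging 1 CPM or more were compared with a two-sided exact binomial test and Benjamini-Hochberg adjustment. Log2 differences used a prior count of 0.5, and a count of 0 was given the limit of 3 counts. Ratios used a pseudocount of 0.1 TPM, except those printed with a counting interval. On simulated data with counting error only, 8886 of 15466 genes were tested, and all 100 genes with a 3-fold change, all 100 with an 8-fold change and 0 of 8686 unchanged genes were called. The changed genes were drawn from higher levels than the 1 CPM minimum of the test. How well changes are found at the lowest levels tested was therefore not simulated.

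The members and lists were chosen with earlier results of these data known. Genes named are the 9 members, those of the ratios, the 2 highest and the lowest of each list, every list gene called between the libraries, and Mrps36. Some genes that this rule takes in are not reported here. Cell type markers are a separate list. Suclg2-ps1, Mmut and Fdx2 matched no entry and were not analysed here. Alternatives were other minimum levels, pseudocounts and fold minimums, FPKM, posterior means, DESeq2 1.42.0 size factors, total counts, coding transcripts alone and leaving out each library. The software was R 4.3.3, Biopython 1.88, matplotlib 3.10.9, scipy 1.17.1, pandas 2.3.3, numpy 2.4.6 and Python 3.11.15.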

Additional observations from a re-analysis of the deposited data

How the results depend on the processing

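No paired analysis was possible because the labels give 1 group. Leaving out a library could not be run for the calls between libraries, which need both. Without replicate 1 the median of the 68 further pathway genes was 6.46 TPM, and the values without each replicate ran from 6.46 to 10.965 (10.9 with both); the median level of the 9 genes ran from 7.33 to 15.02 TPM in the same way. The Sucla2 share of beta subunit TPM was 59.9% without replicate 1 and 82.6% without replicate 2. With total counts the log2 difference of Suclg2 between the libraries was 0.028 (exact binomial test, adjusted p = 0.881) against -0.37. Calls among the 9 genes numbered 6 with DESeq2 size factors, where Idh3a was lost, 8 with total counts or a 1.5-fold minimum, where Cs was gained, and 5 of 6 tested with a mean CPM of at least 10. With no fold minimum all 9 were called, and 7603 of 8884 genes. On TMM-scaled CPM, which ignores length, Suclg1 lay below the summed beta subunits (log2 -1.07 against 0.17 in TPM) and below Sucla2 (-0.35 against 0.67). The cause of these changes was not tested. The replicate 2 values of Dld (10 counts), Idh3a (38 counts) and Suclg1 (53 counts) rest on few counts.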
